A study of Mus musculus with 12 samples.

Results

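The Wnt ligands, the Frizzled receptors and the Sfrp and Dkk families of secreted inhibitors were followed in differentiating mouse embryonic stem (ES) cells with and without *Terc*, the RNA component of telomerase. Each is a gene whose symbol is Wnt, Fzd, Sfrp or Dkk with a number and at most 1 letter, read by at least 1 probe set that carries no other symbol. These were 37 of the 18193 genes read, 19 Wnt, 10 Fzd, 4 Sfrp and 4 Dkk genes, on 73 of the 45037 probe sets tested. A probe set is a group of short probes for 1 transcript, and each gene was read from the brightest of its own, the one with the highest mean over all arrays.

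Wnt proteins are secreted, lipid-modified signals that bind a Frizzled on the receiving cell. With Lrp5 or Lrp6 beside it, the receptor keeps β-catenin from being broken down, and β-catenin then joins Tcf and Lef factors at target genes, while other pairings of ligand and receptor act on cell shape and polarity without β-catenin. Sfrp proteins resemble the outer part of a Frizzled and bind Wnts outside the cell, and most Dkk proteins block Lrp5 and Lrp6. In the early embryo Wnt signals are known for starting the primitive streak and for later patterning of mesoderm, endoderm and neural tissue, and in culture they help to keep mouse ES cells undifferentiated.

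The samples were *Terc*-/- (KO) and wild-type (WT) cells on a C57BL/6 background, taken before differentiation (day 0, ES cells) and after 8 and 15 days of it, with 2 arrays in each of the 6 groups. At day 0 the KO arrays hold the lines F35 and A49 at passage 11, of generation G3/4 in the labels, and the WT arrays hold N12 and N33 at passage 12. The methods give F35 as derived from G3 and A49 from G4 mice, so the KO lines of day 0 differ in generation. The paper itself describes the KO cells of its arrays as G4. ES cells were kept on mitomycin-C treated mouse embryonic fibroblasts, then grown without LIF as embryoid bodies in hanging drops for 4 days and moved to plates. Which lines lie behind the arrays of days 8 and 15, and whether those replicates are separate lines, is not given in the sources used here, so p-values measure only the spread between the samples of a group, pooled over the groups, which may be technical. *Terc* itself was not analysed here, and the genotype rests on the labels.

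Values are scaled linear intensities. The 4 arrays of day 0 have medians of 114 to 117 and the other 8 of 50.6 to 53.1, and why they differ was not tested. Day 0 is therefore not set against later days except as a percentile within each array. Arrays carry no read depth, and their number limits the precision. Replicates correlated at 0.987 to 0.995 over all probe sets, lowest in the WT pair of day 8. Over 16 genes of pluripotent cells, 14 were called higher and 0 lower in KO cells at day 15, and over 15 fibroblast genes 0 were called higher and 9 lower, with median log2 differences of 1.94 and -1.84. Over all genes 8.77% were called higher and 8.31% lower. In mixed cultures such as these, fewer cells of a type and less RNA per cell cannot be told apart. None of these marker genes reads 0 on any array.

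KO cells were first compared with WT cells on the same day. A gene is called when its adjusted p from limma, over all probe sets, is under 0.05. At day 15, 10 of the 37 genes were called, 2 higher and 8 lower in KO cells, while over all genes 17.1% were called, 8.77% higher and 8.31% lower. The genes higher in KO cells were *Wnt8a* and *Fzd5*, and those lower were *Wnt2*, *Wnt11*, *Fzd1*, *Fzd4*, *Sfrp1*, *Sfrp2*, *Dkk2* and *Dkk3*. At day 8, 4 of 37 were called against 1.54% of all genes (0.77% higher and 0.77% lower): *Fzd5* and *Sfrp1* were higher and *Wnt2* and *Fzd4* lower in KO cells. At day 0, 0 of 37 were called, against 0.033% of all genes, and 3 (8.11%) had an unadjusted limma p under 0.05, beside 7.2% of all genes. The median log2 difference of the 37 genes was 0.06 at day 0, 0.04 at day 8 and 0.01 at day 15, beside 0.04, 0.03 and 0.04 over all genes, so the medians lay close to those of all genes while single members moved both ways. In all 6 comparisons together 13 of the 37 genes were called and 24 were not, while 26.9% of all genes were called in at least 1 of the 6.

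**Figure D1:**
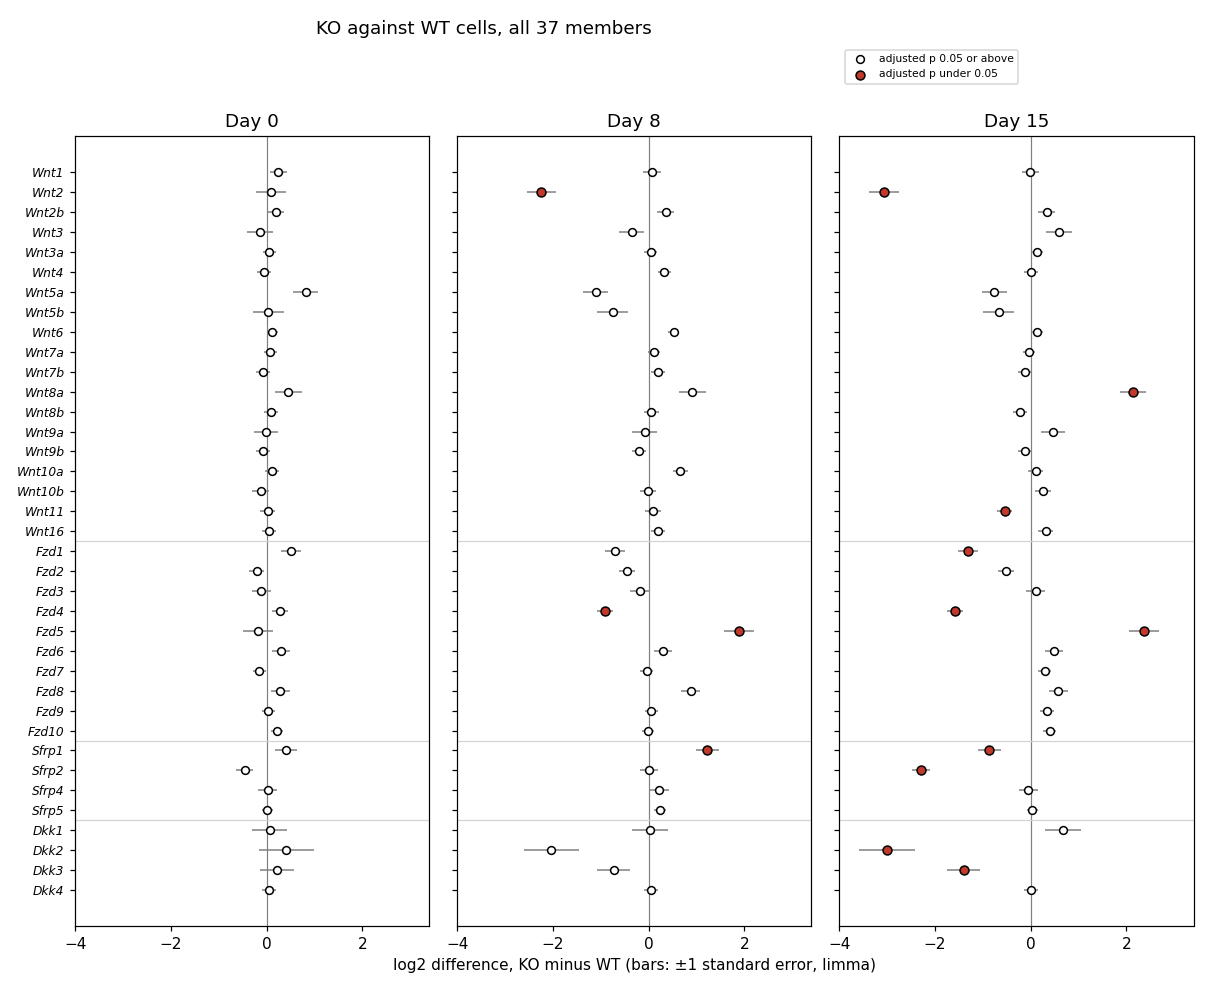
Log2 difference of KO minus WT cells for each of the 37 genes at days 0, 8 and 15, with bars of 1 standard error from limma and filled points for genes called. No gene is filled at day 0, 4 are at day 8 and 10 at day 15, and *Wnt2*, *Dkk2* and *Sfrp2* lie farthest to the left and *Fzd5* and *Wnt8a* farthest to the right at day 15.

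Counted by arrays that do not overlap, 12 of the 37 genes had both KO arrays above both WT arrays at day 15 and 12 had both below, beside 33.1% and 25.8% of all genes. At day 8 these were 10 and 9 genes, beside 27.2% and 18.5% of all genes. At day 0 they were 11 and 3, beside 31.2% and 17.5%. By the rule of at least 1.8-fold between group means, which the methods name and which carries no test, 0 genes were higher and 0 lower at day 0 (0.638% and 0.192% of all genes), 4 and 6 at day 8 (0.973% and 2.01%), and 2 and 7 at day 15 (3.3% and 5.35%). Over the 73 probe sets of the 37 genes, 0 were called at day 0, 10 at day 8 and 21 at day 15, beside 0.0488%, 1.13% and 12.9% of all probe sets. The count of genes called depends on single arrays. For the fits with an array left out, here and below, the share of all genes called was not counted. Whether these shifts are particular to the 37 genes was not tested. At day 8 it was 0 without either KO array of that day, 10 without the first WT array of that day, 2 without the second and 1 without either WT array of day 0. At day 15 it was 6 without the first KO array of that day.

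Among the ligands, *Wnt2* had the largest difference, and it was lower in KO cells on both days. Wnt2 is a ligand of the β-catenin branch known for its part in lung and heart development. At day 15 it read 38.3 and 43.9 in KO cells, against 489 and 241 in WT cells. Already at day 8 it read 31.4 and 33.7 in KO cells, against 118.5 and 201 in WT cells. On both days both KO arrays lay far below both WT arrays, and the WT arrays of each day also differed widely from each other. The KO values lie below the medians of their arrays, at mean percentiles of 38.0 at day 8 and 43.7 at day 15. The log2 difference was -3.07 at day 15 (standard error 0.31, limma adjusted p = 0.000346) and -2.25 at day 8 (standard error 0.31, limma adjusted p = 0.0115). At day 0 *Wnt2* read 88.2 and 97.3 in KO and 92.2 and 82.5 in WT ES cells, where the arrays overlap. The day 15 call held without any single array, with an adjusted p of at most 0.00787 from limma. The day 8 call was lost without either KO array of that day, at adjusted p of 0.124 and 0.101 from limma, and with only the 4 arrays compared, at 0.106.

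*Wnt8a*, a ligand of the primitive streak of the mouse embryo, moved the other way. It read 115 and 94.8 in KO cells at day 15, against 26.9 and 21.0 in WT cells. At day 8 it read 122 and 114 in KO cells, against 75.9 and 51.5 in WT cells. The KO arrays of both days lie within a narrow band above every WT array, and the lowest values are those of WT cells at day 15. The difference was 2.13 on the log2 scale at day 15 (standard error 0.28, limma adjusted p = 0.00112), a 4.39-fold higher level in KO cells. The WT values of day 15 lie below the medians of their arrays, at a mean percentile of 29.9, so the fold rests on dim values. Over the alternatives the log2 difference at day 15 ran from 1.29 to 2.31. At day 8 it was 0.91 and did not pass (limma adjusted p = 0.167). At day 0 the line A49 read 96.6 and the other 3 arrays 48.1 to 54.5, so the KO and WT pairs overlap.

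*Wnt11*, a ligand that acts largely without β-catenin and is known from heart and kidney, was called at day 15 with a small difference. It read 80.0 and 94.1 in KO cells, against 138 and 116 in WT cells, a log2 difference of -0.54 (standard error 0.16, limma adjusted p = 0.0463). The call was lost without any one of 9 of the 12 arrays, at adjusted p of 0.0639 to 0.279 from limma, the exceptions being both WT arrays of day 8 and the second WT array of day 15. It was also lost with an offset of 32 before the logarithm, with quantile normalization, with only the arrays compared and with days 8 and 15 alone, at adjusted p of 0.0545, 0.0525, 0.0915 and 0.112 from limma.

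*Wnt5a*, which also acts mainly without β-catenin and is needed for the outgrowth of limbs and body axis, is read by 4 probe sets. On the brightest it read 287 and 203 in KO cells at day 8, against 598 and 453 in WT cells, and 152 and 187 in KO cells at day 15, against 266 and 306 in WT cells. KO arrays lay below WT arrays on both days, and the differences of -1.11 and -0.76 on the log2 scale did not pass (limma adjusted p = 0.0753 and 0.0847). On 2 dimmer probe sets they did. One gave -1.33 and -0.69 (limma adjusted p = 0.0153 and 0.0493), the other -1.09 and -0.65 (limma adjusted p = 0.023 and 0.0411). All 4 probe sets gave a negative difference on both days.

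The remaining 15 ligands were not called between genotypes. *Wnt1*, known from midbrain formation, and *Wnt3*, needed for the primitive streak, changed with time in WT cells, as described further on. *Wnt3* read 29.8 and 20.9 in KO cells at day 15, against 15.4 and 17.9 in WT cells, without overlap but short of the threshold (log2 difference 0.59, limma adjusted p = 0.19). The 13 ligands called in no comparison were *Wnt2b*, *Wnt3a*, *Wnt4*, *Wnt5b*, *Wnt6*, *Wnt7a*, *Wnt7b*, *Wnt8b*, *Wnt9a*, *Wnt9b*, *Wnt10a*, *Wnt10b* and *Wnt16*. Their log2 differences ran from -0.75 (*Wnt5b*) to 0.66 (*Wnt10a*) at day 8 and from -0.67 (*Wnt5b*) to 0.46 (*Wnt9a*) at day 15. *Wnt6* came nearest at day 8, with 180.1 and 202 in KO cells against 137 and 129 in WT cells (log2 difference 0.52, limma adjusted p = 0.0606). On its dimmer probe set *Wnt6* was called at day 15, with a log2 difference of 0.47 (limma adjusted p = 0.0448).

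**Figure D2:**
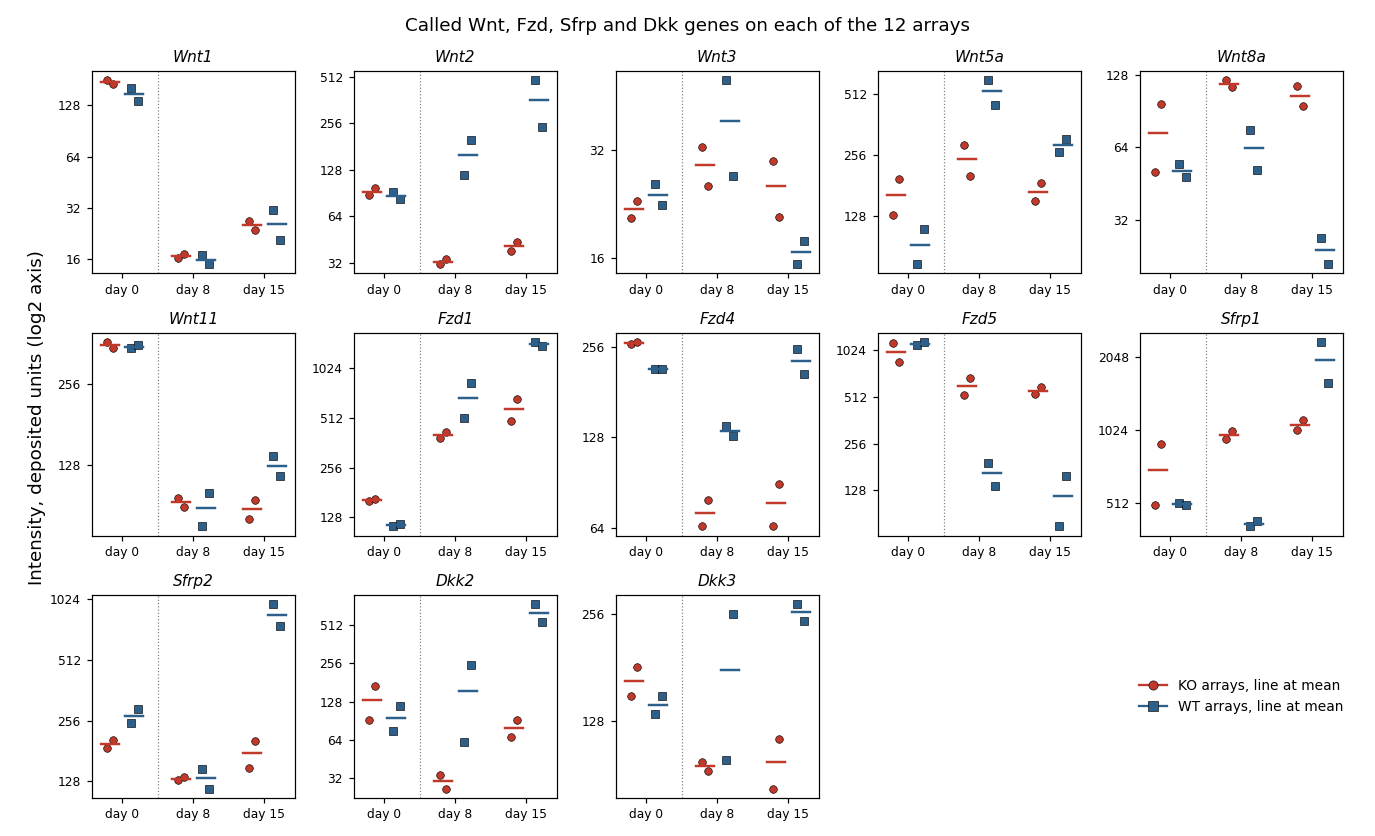
Intensity on each of the 12 arrays, on a log2 axis, for the 13 genes called in at least 1 comparison, with KO arrays as red circles and WT arrays as blue squares at days 0, 8 and 15 and short lines at the group means. The dotted line parts day 0, whose arrays have higher medians, and *Wnt2*, *Sfrp2* and *Dkk2* show KO arrays that stay low at day 15 where WT arrays are high.

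Of the 10 Frizzled receptors, *Fzd5* was higher in KO cells on both days and *Fzd4* lower on both, and *Fzd1* was lower at day 15. Fzd5 is a receptor needed in the mouse for the blood vessels of the yolk sac. It read 527 and 679.9 in KO cells at day 8, against 192.5 and 136 in WT cells. At day 15 it read 531 and 589 in KO cells, against 74.7 and 159 in WT cells. Every KO array lay above every WT array, and the WT arrays of day 15 lay well apart from each other. The log2 differences were 1.89 (standard error 0.31, limma adjusted p = 0.0248) and 2.36 (standard error 0.31, limma adjusted p = 0.00143). The second *Fzd5* probe set was called too, with 0.93 and 1.03 (limma adjusted p = 0.0218 and 0.00204). At day 0 *Fzd5* read 1143 and 860.3 in KO and 1102 and 1154 in WT ES cells, which overlap.

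*Fzd4*, the receptor of retinal vessels that binds both Wnts and the unrelated ligand Norrin, read 64.6 and 78.9 in KO cells at day 8, against 139 and 129 in WT cells. At day 15 it read 64.6 and 89.5 in KO cells, against 252 and 208 in WT cells. KO levels were alike on both days, whereas WT levels were higher at day 15 than at day 8. The log2 differences were -0.91 (limma adjusted p = 0.0322) and -1.59 (limma adjusted p = 0.000346), with a standard error of 0.17. Of its other probe sets 1 was called on both days, at -0.90 and -0.86, and the dimmest gave 0.28 and -0.10, uncalled.

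*Fzd1*, another receptor of the β-catenin branch, read 494 and 671 in KO cells at day 15, against 1477 and 1392 in WT cells. The level at day 8 was 387 and 423.5 in KO cells, against 513 and 840.0 in WT cells. The genotypes did not overlap on either day, and the gap was wider at day 15. The log2 difference was -1.32 at day 15 (standard error 0.21, limma adjusted p = 0.00236) and -0.70 at day 8, which did not pass (limma adjusted p = 0.145). Its second probe set, at means of 13.1 ± 3.87 in KO and 14.5 ± 2.76 in WT cells (SD, n = 2 each), gave -0.16 and was not called. At day 0 both KO lines read above both WT lines, at 161 and 166 against 113 and 117 (log2 difference 0.51, limma adjusted p = 0.511). The day 15 calls of *Fzd1*, *Fzd4* and *Fzd5* held without any single array, at adjusted p of at most 0.0406 from limma. The day 8 calls of *Fzd4* and *Fzd5* were lost without any one of 5 arrays, both WT arrays of day 0, the second WT array of day 8 and both KO arrays of day 8, at adjusted p of 0.0528 to 0.254 from limma. Both were also lost with only the arrays compared (0.175 and 0.111) and with days 8 and 15 alone (0.0933 and 0.0634), and that of *Fzd4* with quantile normalization (0.0501) and with the mean over its probe sets (0.108).

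The sequences before the start sites of these 3 receptors are shown because the receptors moved in opposite directions. Each is the 250 bases upstream of the start that RefSeq gives on GRCm38.p6, read 5′ to 3′ on the strand of the gene. *Fzd5* lies at chr1:64737751-64738000 on the minus strand, *Fzd1* at chr5:4758217-4758466 on the minus strand and *Fzd4* at chr7:89404116-89404365 on the plus strand. Capitals mark matches, on either strand, to the GC box GGGCGG, the Tcf and Lef core CTTTGA or the TATA box TATAAA. The octamer ATGCAAAT was searched as well and has no match in these windows.
Fzd5: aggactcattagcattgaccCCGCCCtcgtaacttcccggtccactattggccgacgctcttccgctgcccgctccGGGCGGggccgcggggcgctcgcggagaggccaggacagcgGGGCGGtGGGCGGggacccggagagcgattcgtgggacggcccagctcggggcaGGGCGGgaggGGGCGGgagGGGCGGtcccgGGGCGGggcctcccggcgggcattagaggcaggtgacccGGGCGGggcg
Fzd1: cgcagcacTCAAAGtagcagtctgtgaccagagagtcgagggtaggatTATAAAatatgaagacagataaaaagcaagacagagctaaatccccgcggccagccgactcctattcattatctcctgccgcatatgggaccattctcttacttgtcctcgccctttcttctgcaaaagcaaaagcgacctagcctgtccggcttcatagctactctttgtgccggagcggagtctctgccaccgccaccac
Fzd4: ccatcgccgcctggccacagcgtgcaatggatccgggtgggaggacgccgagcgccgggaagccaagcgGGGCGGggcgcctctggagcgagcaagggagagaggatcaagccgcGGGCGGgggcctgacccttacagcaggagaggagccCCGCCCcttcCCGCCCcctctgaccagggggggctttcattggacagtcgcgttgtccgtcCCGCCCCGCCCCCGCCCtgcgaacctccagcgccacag
The *Fzd5* window holds 9 GC boxes and the *Fzd4* window 7, a pair of which overlap by 1 base. The *Fzd1* window holds 0 GC boxes, 1 Tcf and Lef core that begins 242 bases before the start and 1 TATA box that begins 202 bases before it. Bases G and C make up 76.4%, 51.2% and 72.8% of the *Fzd5*, *Fzd1* and *Fzd4* windows, beside a median of 52.4% over 32851 windows of the same length and of 69.4% over the 28 windows found for 25 of the 37 genes. The GC box occurs in 32.7% of all windows, the Tcf and Lef core in 13.8%, the TATA box in 12.4% and the octamer in 1.6%. Among the 25 genes with a window, 19 hold a GC box, 4 a Tcf and Lef core (*Wnt5b*, *Wnt11*, *Fzd1* and *Dkk1*), 4 a TATA box and 1 the octamer (*Sfrp2*). A gene counts here with a match in any of its windows, whereas the shares over all windows count each window. *Fzd5* and *Fzd4*, which moved in opposite directions, both have windows rich in GC boxes, and a match of letters shows no binding.

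The other 7 receptors were *Fzd2*, *Fzd3*, *Fzd6*, *Fzd7*, *Fzd8*, *Fzd9* and *Fzd10*, and none was called on its brightest probe set, with log2 differences from -0.46 (*Fzd2*) to 0.87 (*Fzd8*) at day 8 and from -0.51 (*Fzd2*) to 0.58 (*Fzd8*) at day 15. *Fzd7*, a receptor abundant in ES cells, read 857 and 997 in KO cells at day 15, against 736 and 774 in WT cells, and 868 and 931 in KO cells at day 8, against 988 and 866 in WT cells. It stayed bright in both genotypes, with log2 differences of 0.29 and -0.04. *Fzd8* came nearest among those higher in KO cells, at 231 and 209 in KO cells on day 8 against 135.5 and 106 in WT cells (log2 difference 0.87, limma adjusted p = 0.0643). *Fzd2* came nearest among those lower, at 820.5 and 1014 in KO cells on day 15 against 1430 and 1188 in WT cells (log2 difference -0.51, limma adjusted p = 0.0634), and all 3 of its probe sets gave negative differences on both days. *Fzd3*, which with Fzd6 orients cells within a tissue, has 6 probe sets, of which 1 was called higher at day 15, at 0.70 (limma adjusted p = 0.0323), while the brightest gave 0.10.

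Of the secreted inhibitors, *Sfrp1* changed sides between the days. It was brighter in KO cells at day 8 and brighter in WT cells at day 15. At day 8 it read 940.4 and 1018 in KO cells, against 409 and 431 in WT cells. At day 15 it read 1021 and 1123 in KO cells, against 2364 and 1610 in WT cells. The 4 KO arrays lie close together over both days, and the WT arrays lie below them at day 8 and above them at day 15. The log2 difference was 1.22 at day 8 (standard error 0.24, limma adjusted p = 0.0419) and -0.87 at day 15 (limma adjusted p = 0.0384).

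*Sfrp1* is read by 5 probe sets, and on all 5 the KO mean was higher at day 8 and lower at day 15. At day 8, 2 of them were called, with log2 differences of 0.51 to 1.28 over the 5. At day 15 all 5 were called, from -1.28 to -0.70. Both calls on the brightest probe set are sensitive to single arrays. The day 8 call was lost without any one of 8 arrays, the exceptions being both KO arrays of day 0 and both WT arrays of day 15, and the day 15 call without any one of 9, the exceptions being both KO arrays of day 0 and the second WT array of day 15. Adjusted p then ranged over 0.0688 to 0.241 at day 8 and 0.0509 to 0.246 at day 15, from limma. The day 8 call was also lost with the offset of 32, with only the arrays compared and with the mean over its probe sets, at 0.0531, 0.101 and 0.0613.

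*Sfrp2*, a close relative that also binds Wnts outside the cell, had the smallest adjusted p among the 37 genes at day 15. It read 149 and 203 in KO cells, against 963 and 748 in WT cells, a log2 difference of -2.29 (standard error 0.18, limma adjusted p = 6.97e-05). *Sfrp2* at day 8 read 130.0 and 134 in KO cells, against 147 and 118 in WT cells, where the arrays overlap and the log2 difference was 0.00 (limma adjusted p = 0.998). The day 15 call held without any single array, at adjusted p of at most 0.0025 from limma. At day 0 KO lines read 188 and 205 and WT lines 250.1 and 291.5, lower in KO cells but not called (limma adjusted p = 0.488).

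*Sfrp4* and *Sfrp5* were not called on their brightest probe sets, with differences of 0.22 and 0.24 on the log2 scale at day 8 and of -0.05 and 0.04 at day 15. The second probe set of *Sfrp5*, whose mean over the 12 arrays, with those of day 0, was lower, read differently. In KO cells it was the brighter of the 2, at means of 130.8 and 109.4 at days 8 and 15 against 81.2 and 74.05. In WT cells it was the dimmer, at 55.3 and 53.8 against 68.8 and 72.2. It read 118 and 143 in KO cells at day 8, against 65.7 and 44.9 in WT cells, and 116 and 103 in KO cells at day 15, against 54.3 and 53.3 in WT cells. There KO arrays were above WT arrays on both days, at log2 differences of 1.26 (limma adjusted p = 0.00944) and 1.02 (limma adjusted p = 0.00345). Which of the probe sets follows the transcript was not tested.

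Of the Dkk genes, *Dkk2* and *Dkk3* were lower in KO cells at day 15. Dkk2 binds Lrp5 and Lrp6 and can block or, in some settings, help Wnt signals. It read 67.0 and 91.9 in KO cells at day 15, against 741.5 and 535 in WT cells. On day 8 it read 34.1 and 26.6 in KO cells, against 61.2 and 247 in WT cells. The genotypes do not overlap on either day, and the second WT array of day 8 reads far above the first. The log2 difference was -3.00 at day 15 (standard error 0.58, limma adjusted p = 0.0106) and -2.03 at day 8, which did not pass (limma adjusted p = 0.154). The standard error is the widest of the 37 genes. The day 15 call was lost without the first WT array or the first KO array of that day, at adjusted p of 0.0576 and 0.0683 from limma.

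*Dkk3*, a diverged member that does not block Lrp5 and Lrp6 as the others do, read 83.2 and 114.5 in KO cells at day 15, against 272 and 245 in WT cells. The difference was -1.40 on the log2 scale (standard error 0.35, limma adjusted p = 0.0265), and its second probe set gave -1.28 (limma adjusted p = 0.0544). The day 8 arrays read 98.9 and 93.0 in KO cells, against 99.7 and 255.5 in WT cells. There the first WT array is level with the KO arrays and only the second is well above them (log2 difference -0.74, limma adjusted p = 0.386). The day 15 call was lost without any 1 of the 4 arrays of that day, at adjusted p of 0.0526 to 0.18 from limma, and with days 8 and 15 alone, at 0.0664.

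*Dkk1*, the classical inhibitor of Lrp6 in the forming head, read 367 and 466 in KO cells at day 15, against 224 and 299 in WT cells, and was not called (log2 difference 0.68, limma adjusted p = 0.292). *Dkk4* stayed among the dimmest probe sets, at 18.6 to 22.8 on the 8 arrays of days 8 and 15.

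The second WT array of day 8 also stands apart on the fibroblast genes. Their summed intensity was 4643 and 4613 on the KO arrays of day 8, against 7953 and 28200 on the WT arrays. At day 15 it was 12150 and 17420 on the KO arrays, against 80290 and 60660 on the WT arrays. On the second WT array of day 8, *Wnt2*, *Wnt11*, *Fzd1*, *Dkk2* and *Dkk3* read higher than on the first, as the fibroblast genes did. *Sfrp1* was nearly level, at 409 on the first and 431 on the second, and *Fzd4* and *Sfrp2* read lower on the second. All of these are genes called lower in KO cells at day 15. At day 15 the summed intensity of the 16 genes of pluripotent cells was 23870 and 22650 on the KO arrays, against 3878 and 10230 on the WT arrays, and of the genes higher in KO cells *Fzd5* read lower on the first than on the second of these WT arrays while *Wnt8a* read higher. Of the other marker lists at day 15, 0 of 13 endoderm genes were called higher and 6 lower, 0 of 8 endothelial genes higher and 6 lower, 4 of 8 primitive streak genes higher and 0 lower, 5 of 13 neural genes higher and 1 lower, and 1 of 10 muscle genes higher and 0 lower. Over all genes 8.77% were called higher and 8.31% lower on that day. At day 8, 2 of the 16 genes of pluripotent cells and 1 neural gene were called higher, and 3 fibroblast genes and 1 primitive streak gene lower. Over all genes 0.77% were called higher and 0.77% lower at day 8. At day 0 none of these marker genes was called, beside 0.033% of all genes. The part of any of these cell types in the Wnt, Fzd, Sfrp and Dkk differences was not tested.

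At day 0, before differentiation, the log2 differences of the 37 genes ran from -0.46 (*Sfrp2*) to 0.82 (*Wnt5a*). *Wnt5a* read 130.1 and 196 in the KO lines, against 74.5 and 111 in the WT lines (limma adjusted p = 0.344, the lowest of the 37 genes on that day). Both KO lines lay above both WT lines, the reverse of its order at days 8 and 15 on this probe set, where it was not called either. On a dimmer probe set that was called at days 8 and 15, the KO lines lay below the WT lines at day 0 too, at 71.4 and 78.5 against 82.6 and 82.65. On the other dimmer probe set called on those days they lay above, at 73.35 and 86.5 against 57.4 and 63.9. Of the 4 *Wnt5a* probe sets, 3 gave a positive difference at day 0. The summed intensity of the fibroblast genes at day 0 was 7234 and 11210 on the KO arrays, against 4098 and 6690 on the WT arrays, in cultures grown on fibroblast feeders, and its part in the day 0 values was not tested.

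Day 15 was then compared with day 8 within each genotype. In KO cells 0 of 37 genes were called, while over all genes 0.0275% were called, and 7 (18.9%) had an unadjusted limma p under 0.05, beside 11.5% of all genes. Without either WT array of day 8 the count in KO cells was 1. In WT cells 11 of 37 were called, 8 higher and 3 lower at day 15, beside 21% of all genes (9.66% higher and 11.3% lower). Those higher were *Wnt1*, *Wnt2*, *Wnt11*, *Fzd1*, *Fzd4*, *Sfrp1*, *Sfrp2* and *Dkk2*, and those lower were *Wnt3*, *Wnt5a* and *Wnt8a*. The median log2 change of the 37 genes was 0.02 in KO and 0.07 in WT cells, beside 0.00 and 0.01 over all genes. Both arrays of day 15 lay above both of day 8 for 12 genes in KO cells and below for 5 (24.2% and 26.6% of all genes), and for 13 and 11 genes in WT cells (28.6% and 26.6%). By the 1.8-fold rule 1 gene was higher and 0 lower in KO cells (1.04% and 0.269% of all genes), and 5 were higher and 3 lower in WT cells (5.13% and 3.75%). Of the 73 probe sets, 0 were called in KO cells and 19 in WT cells, beside 0.02% and 16% of all probe sets. Over the same days 0 of the marker genes were called in KO cells. In WT cells 8 of 15 fibroblast, 6 of 13 endoderm and 6 of 8 endothelial genes were called higher. There 13 of 16 pluripotent and 7 of 8 primitive streak genes were called lower. The fibroblast genes had a median log2 change of 0.78 in KO cells, and 10 of 15 (66.7%) had an unadjusted limma p under 0.05. That share was 30.8% for endoderm, 0% for endothelial, 6.25% for pluripotent and 37.5% for primitive streak genes, beside 11.5% of all genes. The part of these cell types in these changes was not tested. These comparisons share their arrays with those between genotypes.

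**Figure D3:**
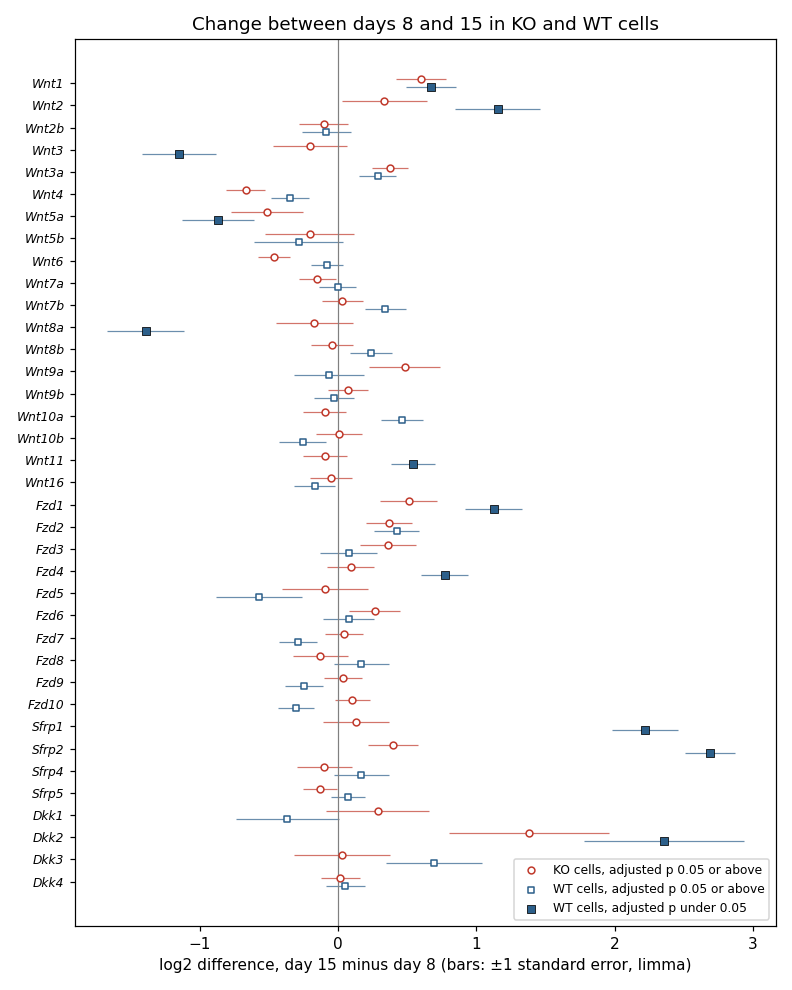
Log2 difference of day 15 minus day 8 for each of the 37 genes in KO cells (circles) and WT cells (squares), with bars of 1 standard error from limma and filled marks for genes called. The filled marks are all WT squares, with *Sfrp2*, *Dkk2* and *Sfrp1* farthest to the right and *Wnt8a*, *Wnt3* and *Wnt5a* farthest to the left.

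The 3 largest gains in WT cells were those of inhibitors. *Sfrp2* changed by 2.69 on the log2 scale in WT cells (standard error 0.18, limma adjusted p = 2.20e-05), a 6.45-fold higher level at day 15, and by 0.40 in KO cells (limma adjusted p = 0.468). *Sfrp1* changed by 2.22 in WT cells (limma adjusted p = 0.000373) and by 0.13 in KO cells (limma adjusted p = 0.897). *Dkk2* changed by 2.36 in WT cells (limma adjusted p = 0.0246), and its change of 1.38 in KO cells, though large, had a standard error of 0.58 and did not pass. In KO cells *Dkk2* read 67.0 and 91.9 at day 15, against 34.1 and 26.6 at day 8, without overlap.

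The difference between the genotypes in this change was tested as an interaction. It was called for 2 of the 37 genes, beside 0.66% of all genes, and both are Sfrp genes. For *Sfrp2* it was -2.29 on the log2 scale (standard error 0.26, limma adjusted p = 0.00563) and for *Sfrp1* -2.09 (standard error 0.34, limma adjusted p = 0.0324). Of the 5 *Sfrp1* probe sets 3 were called for it, and of all 73 probe sets 4, beside 0.422% of all probe sets on the arrays. The *Sfrp2* interaction was lost without the first KO array of day 15, at an adjusted p of 0.0522 from limma. That of *Sfrp1* was lost without any one of 8 arrays, both WT arrays of day 0, the first WT array of day 8, both KO arrays of day 8, the first WT array of day 15 and both KO arrays of day 15, at adjusted p of 0.0652 to 0.17 from limma. The interaction was called for 6 of the 37 genes without the second WT array of day 8, for 0 without the first KO array of day 15 and for 1 without either WT array of day 0, either KO array of day 8, the first WT array of day 15 or the second KO array of day 15.

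Among the receptors, *Fzd1* changed by 1.13 in WT cells (limma adjusted p = 0.00419) and by 0.51 in KO cells (limma adjusted p = 0.404). *Fzd4* changed by 0.77 in WT cells (limma adjusted p = 0.0109) and by 0.09 in KO cells (limma adjusted p = 0.9). For neither did the difference between genotypes pass, at -0.62 and -0.68 (limma adjusted p = 0.436 and 0.28). *Fzd5* was not called over time in either genotype, with changes of -0.10 in KO and -0.57 in WT cells. *Fzd2* and *Fzd3* were called over time in WT cells only on a dimmer probe set. Their changes there were 0.81 and -0.97 (limma adjusted p = 0.022 and 0.00567). The *Fzd4* call was lost without the first WT array of day 15, at an adjusted p of 0.0911 from limma, and the *Fzd1* call held without any single array.

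Ligands moved both ways in WT cells. *Wnt8a* fell to 26.9 and 21.0 at day 15, against 75.9 and 51.5 at day 8 (log2 change -1.39, limma adjusted p = 0.0074). *Wnt3* fell to 15.4 and 17.9 at day 15, against 50.1 and 27.2 at day 8 (log2 change -1.15, limma adjusted p = 0.0143). Its only probe set is below the median of every array and is of the x_at type, whose probes can match other transcripts. *Wnt5a* fell to 266 and 306 at day 15, against 598 and 453 at day 8 (log2 change -0.87, limma adjusted p = 0.0443), and 3 of its 4 probe sets were called. In KO cells the changes of these 3 ligands were -0.17, -0.21 and -0.52, none of them called.

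*Wnt2* rose to 489 and 241 in WT cells at day 15, against 118.5 and 201 at day 8 (log2 change 1.15, limma adjusted p = 0.029). *Wnt11* rose to 138 and 116 at day 15, against 75.2 and 100.4 at day 8 (log2 change 0.54, limma adjusted p = 0.0403). *Wnt1* rose in WT cells by 0.67 on the log2 scale (limma adjusted p = 0.0271) and changed by 0.60 in KO cells (limma adjusted p = 0.287). Its interaction was -0.07 (limma adjusted p = 0.953), so that the call in WT cells alone shows no difference between genotypes. All these levels of *Wnt1*, 14.9 to 30.9 on the 8 arrays, lie low on their arrays.

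The calls over time in WT cells rest on few arrays, and 4 of the 37 genes were called without the first WT array of day 15, 6 without the first WT array of day 8 and 13 without the second WT array of day 8 or of day 15. Without the first WT array of day 15 the calls of *Wnt1*, *Wnt2*, *Wnt3*, *Wnt5a*, *Wnt11*, *Fzd4* and *Dkk2* were lost, at adjusted p of 0.219, 0.179, 0.0958, 0.212, 0.241, 0.0911 and 0.114 from limma. Without the first WT array of day 8 those of *Wnt2*, *Wnt3*, *Wnt5a*, *Wnt8a*, *Wnt11* and *Dkk2* were lost, at 0.172, 0.0782, 0.228, 0.0502, 0.234 and 0.0736, and without the second that of *Wnt1*, at 0.0925. *Wnt5a* was also lost without the second WT array or either KO array of day 15, at 0.0624 to 0.0779, and *Wnt11* without any array of day 0, either KO array of day 8 or the first KO array of day 15, at 0.0501 to 0.0683. *Sfrp1*, *Sfrp2* and *Fzd1* kept their calls without any single array.

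Within each array, 18 of the 37 genes lay above the median of all probe sets on all 12 arrays. These were 8 of the 10 receptors, 3 of the 4 Sfrp genes, 6 of the 19 ligands and 1 of the 4 Dkk genes. *Wnt2b*, *Wnt3*, *Wnt8b* and *Dkk4* lay below it on every array. Brightness also depends on the probes, so a percentile places 1 gene across arrays and does not rank transcripts. *Fzd5* lay at a mean percentile of 88.8 in KO and 90.1 in WT ES cells at day 0, at 89.4 in KO and 71.3 in WT cells at day 8, and at 89.0 in KO and 64.4 in WT cells at day 15. Its place thus stayed level in KO cells and went down in WT cells. *Sfrp2* lay at 64.2 in KO and 71.1 in WT ES cells at day 0, at 68.8 and 68.2 in KO and WT cells at day 8, and at 73.1 in KO and 92.4 in WT cells at day 15. *Dkk1* lay at 21.4 in KO and 21.7 in WT ES cells at day 0 and at 85.6 in KO and 78.8 in WT cells at day 15, a climb seen in both genotypes.

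**Figure D4:**
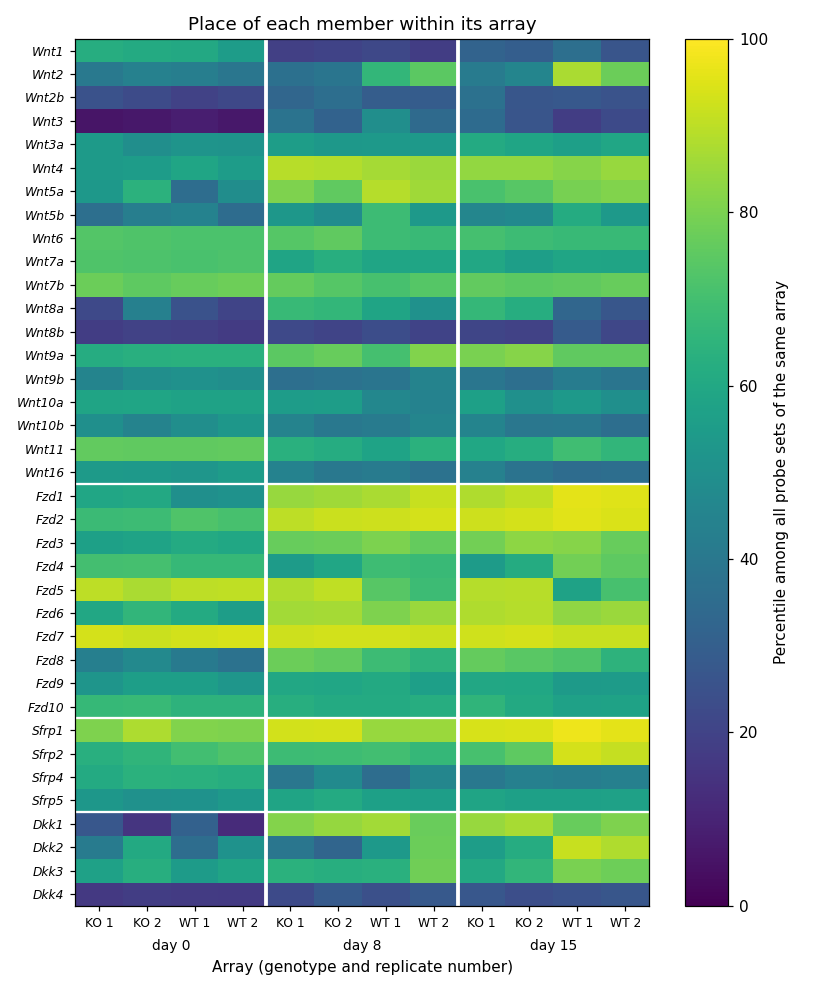
Percentile of each of the 37 genes among the 45037 probe sets of the same array, from 0 (dark) to 100 (bright), with KO arrays left of WT arrays at each of days 0, 8 and 15 and white lines between days and between families. The *Fzd5* row stays bright in KO columns and darkens in WT columns after day 0, and *Wnt2*, *Sfrp2* and *Dkk2* are brighter in the WT than in the KO columns of day 15.

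Beyond these families, 42 other genes of the pathway were measured. At day 15, 3 were called higher and 7 lower in KO cells, and at day 8, 1 higher and 3 lower, beside 17.1% and 1.54% of all genes called either way, with median log2 differences of -0.03 and -0.09. Over time 5 were called higher and 5 lower at day 15 in WT cells and 0 in KO cells, beside 21% and 0.0275% of all genes, and the interaction was called for 1, *Sostdc1*. *Axin2*, a general target of β-catenin, read 283.5 and 265.5 in KO cells at day 15, against 251 and 262.5 in WT cells (log2 difference 0.10, limma adjusted p = 0.812). The day 8 level was 314 and 340.0 in KO cells, against 545 and 366 in WT cells (log2 difference -0.45, limma adjusted p = 0.313). *Axin2* thus was not called on either day. Of 9 genes of the cytoplasmic relay, from the Dvl proteins to β-catenin itself, 0 were called on either day. On each day 1 had an unadjusted limma p under 0.05, beside 15.9% of all genes at day 8 and 32.4% at day 15.

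Of 9 targets, *Nkd1*, an inhibitor that Wnt signals induce, was lower in KO cells on both days, at log2 differences of -1.12 (limma adjusted p = 0.0211) and -1.56 (limma adjusted p = 0.000627). *Nkd2* was lower at day 15, at -0.92, and *Myc* at day 8, at -0.69 (limma adjusted p = 0.0179 and 0.0403), while *Sp5* was higher at day 15, at 1.20 (limma adjusted p = 0.0104). Of 3 Tcf and Lef factors read, *Lef1* was -0.53 at day 8 (limma adjusted p = 0.11) and 0.51 at day 15 (limma adjusted p = 0.037), and *Tcf7l1*, mainly a repressor in ES cells, was -1.01 at day 15 (limma adjusted p = 0.0101). Targets thus moved both ways.

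Of 8 co-receptors and other receptors, *Lgr5*, which binds R-spondins, was higher in KO cells on both days, at 1.02 and 0.92 (limma adjusted p = 0.0458 and 0.0152), and *Ryk* was lower at day 15, at -0.44 (limma adjusted p = 0.0489). Of 10 other secreted modulators, *Rspo3*, an R-spondin, was lower at day 8, at -1.22 (limma adjusted p = 0.00886). *Rspo1*, another R-spondin, and *Apcdd1* were lower at day 15, at -1.90 and -0.78 (limma adjusted p = 0.00649 and 0.021). *Sostdc1*, a secreted inhibitor of Wnt and BMP signals, read 21.4 and 23.4 in KO cells at day 15, against 48.4 and 41.3 in WT cells (limma adjusted p = 0.00232). Of 3 genes of Wnt secretion and removal 0 were called on either day. At an unadjusted limma p under 0.05 these were 2 at day 8 and 1 at day 15, beside 15.9% and 32.4% of all genes.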

How the data were processed

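Total RNA of KO and WT cells at days 0, 8 and 15 was measured on 12 Affymetrix Mouse Genome 430 2.0 arrays, 2 in each group. The authors deposited 1 linear intensity per probe set and array, made with MAS5 per the submitters' processing notes, whose version is not given in the sources used here. All 12 columns were matched to samples by the labels. Of 45101 probe sets, 64 controls were left out, and 34945 carry 1 gene symbol, 932 several and 9160 none. No detection calls were used.

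Intensities under 1 were set to 1 and log2 transformed. Groups were compared with limma 3.58.1 (statmod 1.5.0, R 4.3.3), with 1 mean per group over all 12 arrays, an intensity trend, robust moderation and Benjamini-Hochberg adjustment over 45037 probe sets, at a threshold of 0.05. The 6 comparisons were KO against WT on each day, day 15 against day 8 in each genotype, and the genotype-by-day interaction. The procedure was tested on simulated data. Summaries, promoter searches and figures were made in Python 3.11.15 with matplotlib 3.10.9, pandas 2.3.3 and numpy 2.4.6.

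Genes called in any comparison are described in full and the others by level and range. The members and the lists (6 pathway lists, and markers of pluripotent cells, fibroblasts, endoderm, neural cells, primitive streak, endothelium and muscle) were chosen with earlier results of these data known. *Kremen2* and *Tcf7* had no single-gene probe set. The antisense gene *Fzd10os* was set aside. Alternatives covered the offset, normalization, centring, a filter on dim probe sets, moderation, the arrays in the fit, replicate blocks, the mean over probe sets, the methods' t-test, the methods' 1.8-fold rule and leaving out each array. A fit to days 8 and 15 alone was chosen after seeing the data.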

Additional observations from a re-analysis of the deposited data

Results flagged for a closer look

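Genes were singled out here when the change between days 8 and 15 differed between KO and WT cells by limma's test of that difference. *Sfrp2* changed by 0.40 on the log2 scale in KO cells and by 2.69 in WT cells, an interaction of -2.29 (limma adjusted p = 0.00563). *Sfrp1* changed by 0.13 in KO cells and by 2.22 in WT cells, an interaction of -2.09 (limma adjusted p = 0.0324). Groups of 2 arrays were not searched for outlying samples.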

How the results depend on the processing

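The 27 single-gene results gave 626 values under the alternatives, of which 472 stayed on the same side of the threshold, 154 no longer passed (77 with an array left out and 77 otherwise) and 0 changed sign. A sign could not change under alternatives that leave the log2 difference as it was. These include a change of test and leaving out an array of a group not compared. Of the 37 genes, 4 were called at day 8, 10 at day 15 and 11 over time in WT cells. Fitting only the arrays compared gave 0 at day 8, 2 over time in KO cells and 2 in WT cells, with fewer arrays for the spread. The replicate block within genotype gave 7 over time in WT cells and 0 for the interaction. The replicate block by number gave 4 at day 8, 9 at day 15, 9 over time in WT cells and 2 for the interaction. Under it *Sfrp1* at day 8, *Wnt11* at day 15 and *Wnt5a* and *Wnt11* over time in WT cells were not called, at limma adjusted p of 0.0509 to 0.0582, and 3 of the 4 genes called at day 8 were shared. Correlations of same-numbered deviations ran from -0.0883 to 0.173. With 2 arrays a group they cannot settle whether the numbers pair the samples. The methods' t-test, unadjusted, called 4 at day 0, 7 at day 8, 4 over time in KO cells and 4 in WT cells. Over all probe sets it called 8.36%, 8.58%, 10.4% and 10.6% in these comparisons. After Benjamini-Hochberg it called 0 at day 8, 0 at day 15 and 0 over time in WT cells, as it did over all probe sets. The methods' 1.8-fold rule gave 10 at day 8 and 1 over time in KO cells. Days 8 and 15 alone gave 2 at day 8. The cause of the other shifts was not tested, and the share of all genes called was not counted for fits with an array left out. Leaving out each array in turn gave 0 to 10 at day 8, 6 to 13 at day 15, 0 to 1 over time in KO cells, 4 to 13 in WT cells and 0 to 6 for the interaction. With 2 arrays a group, precision is low, and the probe sets of *Wnt2b*, *Wnt3*, *Wnt8b* and *Dkk4* lie below the median of every array.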

Other observations

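The antisense gene *Fzd10os* was set aside because its symbol is not that of a receptor. Its brighter probe set read 99.7 and 98.2 in KO cells at day 15, against 76.5 and 67.1 in WT cells, a log2 difference of 0.47 (limma adjusted p = 0.0676). *Fzd10* itself read 107 and 86.3 in KO cells, against 72.8 and 73.4 in WT cells (log2 difference 0.39, limma adjusted p = 0.0683). Neither was called, and on both the KO arrays lay above the WT arrays at day 15.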
